A study of Homo sapiens with 43 samples.

Results

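The V5 antibody, used on HEK293T cells across 7 ranges of a protein gel, repeatedly called 785 short RNA regions that no FLAG-only library called. They were found by pooling the peaks of 14 libraries named V5-only or FLAG-only, merging peaks that overlapped by 1 nt or more on the same strand, and keeping merged regions with peaks from 5 or more of the 7 V5-only lists and from no FLAG-only list. The mitochondrial chromosome was left out, and neither the enrichment nor the p-value of a peak entered the choice. Of 272335 merged regions, 785 met the rule (0.288%). The regions were selected on presence in these 14 lists, so their recurrence and their enrichment in V5-only lists are descriptions and carry no test.

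eCLIP crosslinks proteins to RNA in living cells with ultraviolet light, isolates a protein with an antibody, and sequences the RNA attached to it. HEK293T is a human embryonic kidney line. The V5-only libraries used a V5 antibody from Bethyl and the FLAG-only libraries a FLAG antibody from Sigma, and each tag had 1 library in each of 7 gel ranges of 75 kDa between 25 and 250 kDa. Neighbouring ranges share 50 kDa, the 7 inputs are labelled by gel range without an antibody, and the labels say neither whether these cells expressed a tag nor whether the libraries came from separate cultures. The other 11 libraries profiled RNA-binding proteins (RBPs): antibodies against HNRNPC, FMR1, RBFOX2, LIN28 and DGCR8 in wild-type cells, the V5 antibody in cells with tagged HNRNPC isoform 1, HNRNPC isoform 2, RBFOX2 or LIN28, and the FLAG antibody in cells with tagged FMR1 or DGCR8. Each of these 11 was a single library, so its values have no replicate error.

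HNRNPC is an abundant protein of the nucleus that binds newly made transcripts where they are rich in uridine and is known for keeping cryptic exons in introns from being spliced. RBFOX2 is a splicing regulator, and DGCR8 is the partner of DROSHA in microRNA processing. FMR1 and LIN28 bind messenger RNAs, mainly in the cytoplasm, and LIN28 also binds microRNA precursors. In a tag-only library no tagged RBP is named, and the V5 and FLAG tags are short peptides against which the antibodies were raised.

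The 14 lists held between 47978 and 71364 peaks each, 416239 with the V5 and 413698 with the FLAG antibody, so the lists of the 2 tags were of like length. Read depth is unknown, since the lists hold peaks and not reads. Each peak carries the authors' log2 fold over its size-matched input and a −log10 p. A peak counts as significant here where its log2 fold reached 3 (8-fold) and its −log10 p reached 3, limits in common use for eCLIP that the labels do not state.

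Most of the regions recurred just often enough to be included. Peaks came from 5 V5-only lists in 506 regions, from 6 in 201 and from all 7 in 78. With the tags exchanged, 453 regions had peaks in 5 or more FLAG-only lists and in no V5-only list (0.166% of all). A further 19212 regions recurred in 5 or more V5-only lists and had FLAG-only peaks as well, and 5190 of these were in all 14 lists. The regions without FLAG-only peaks were thus 785 of the 19997 that recurred with V5. Leaving out a V5-only list while still asking for 5 lists gave between 344 and 587 regions, and the number fell by more than 1.5 times for each list except that of 25 to 100 kDa. Leaving out a FLAG-only list gave between 860 and 1059. For the exchanged rule, leaving out a FLAG-only list gave between 228 and 275. The excess over the exchanged rule was not kept throughout. With recurrence counted over significant peaks there were 0 regions against 67 of the exchanged rule. The exchanged rule also gave more regions without any 1 of the 7 V5-only lists. There the V5 rule asks for 5 of the remaining 6, and 1 list fewer can bar a region of the exchanged rule. Both tilt the numbers towards the exchanged rule.

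**Figure D1:**
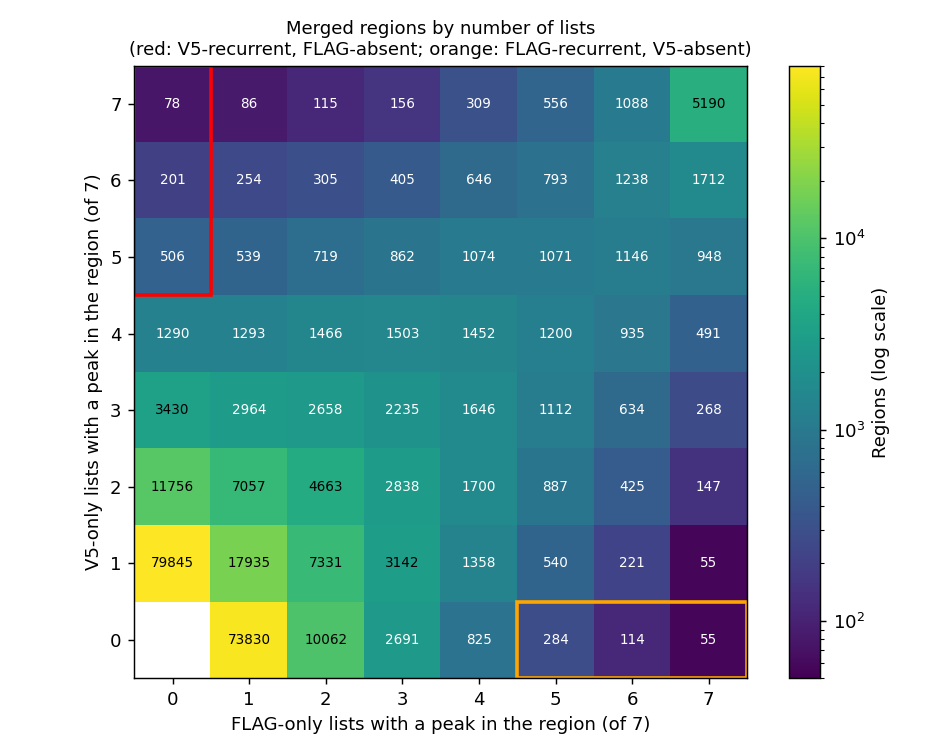
Number of merged regions (colour, log scale, and printed number) by how many of the 7 V5-only lists (vertical axis) and how many of the 7 FLAG-only lists (horizontal axis) had a peak there. The red frame holds the 785 V5-recurrent regions without FLAG-only peaks, the orange frame the 453 of the exchanged rule. Regions in all 14 lists, 5190, outnumber both.

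The regions were shorter than other recurrent regions and weakly enriched. Their median length was 47 nt (quartiles 42 and 58 nt, range 17 to 205 nt). It was 76 nt for the FLAG-recurrent regions without V5-only peaks and 110 nt for V5-recurrent regions with FLAG-only peaks. All merged regions had a lower median, 33 nt (quartiles 19 and 52 nt). A region called in many lists is longer where its peaks differ in extent, and length was not otherwise adjusted. The median over regions of the median log2 fold in V5-only lists was 1.31 (quartiles 0.82 and 1.75), beside 1.70 in V5-recurrent regions with FLAG-only peaks. A region's median fold was above 0 in 760 of 785 regions (96.8%), beside 98.0% of V5-recurrent regions with FLAG-only peaks. The median over regions of the median −log10 p was 0.70, against 1.49 in V5-recurrent regions with FLAG-only peaks. FLAG-recurrent regions without V5-only peaks had a median log2 fold of 2.55 in the FLAG-only lists, and 100% of them were above 0. No value was computed for FLAG-recurrent regions with V5-only peaks, so a difference in fold between the libraries of the 2 antibodies cannot be told apart here. Of the 785 regions, 397 (50.6%) lay on the plus strand.

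Few of the regions reached significance in any library. A significant peak was present in at least 1 V5-only list in 97 regions, or 12.4% (95% Wilson interval 10.2% to 14.8%), where the background over all 19997 V5-recurrent regions was 28.6%. Among the 97 regions, 85 were significant in 1 list, 10 in 2 and 2 in 3. In the FLAG-recurrent regions without V5-only peaks, 266 of 453 (58.7%) were significant in at least 1 FLAG-only list. The background over all FLAG-recurrent regions was not computed. The list of 125 to 200 kDa supplied 48 of the significant calls, and without it the share of regions with one was 7.13%. Wilson intervals cover counting error over regions only, and neighbouring regions are not independent.

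The regions were spread unevenly over the gel. The V5-only list of 25 to 100 kDa, which had the most peaks of the 7, held 368 of the 785 regions (46.9%). The lists of 50 to 125, 75 to 150, 100 to 175, 125 to 200, 150 to 225 and 175 to 250 kDa held 652, 562, 652, 692, 716 and 640. The lowest range thus held the fewest and the range of 150 to 225 kDa the most (91.2%). Over all V5-recurrent regions the lists held between 75.2% and 91.6%, with 85.8% for 25 to 100 kDa. Of the 201 regions found in 6 lists, 115 were missing from 25 to 100 kDa, and between 6 and 28 from each of the others.

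Enrichment at the regions had its highest median in the range of 125 to 200 kDa. The median log2 fold was 1.20 at 25 to 100 kDa, 1.12 at 50 to 125 kDa, 1.44 at 75 to 150 kDa, 1.04 at 100 to 175 kDa, 1.78 at 125 to 200 kDa, 1.38 at 150 to 225 kDa and 0.91 at 175 to 250 kDa. The SD over regions within a list was between 0.86 and 1.05, so the 7 distributions overlapped widely. Beside these values, the median over all peaks of a list was also highest at 125 to 200 kDa, 2.37, and lowest at 25 to 100 kDa, 1.16. Many folds repeat within a list. The 5 commonest values covered between 21.8% and 52.2% of the regions held by a list, the most at 25 to 100 kDa.

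**Figure D2:**
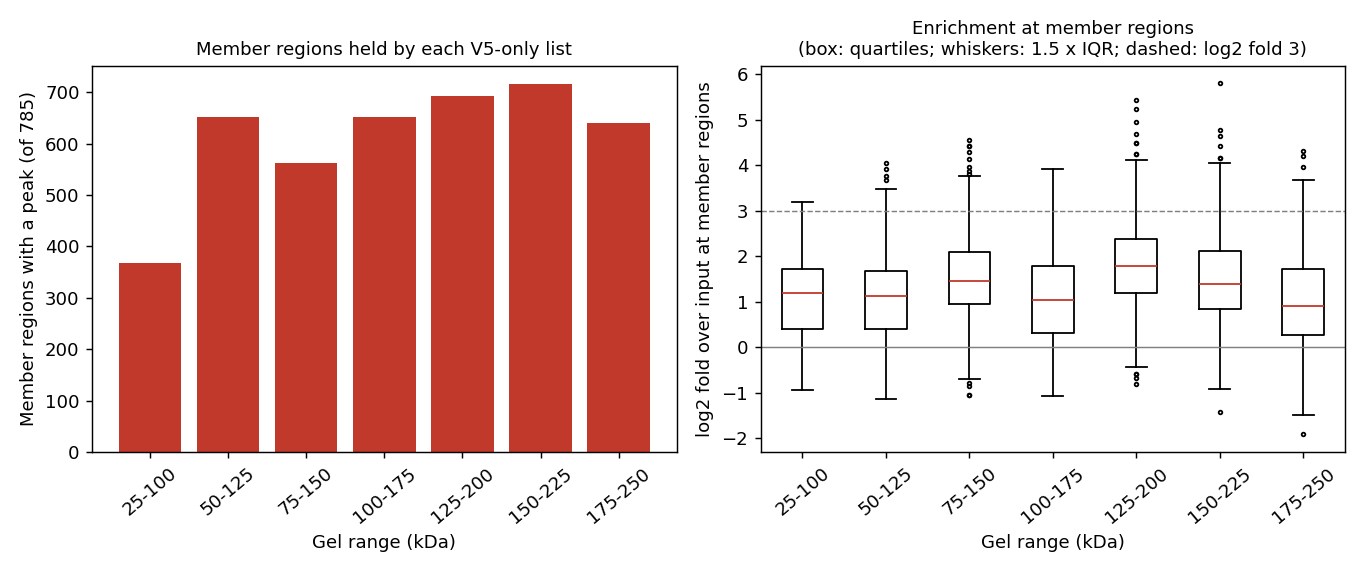
Left, number of the 785 regions with a peak in each V5-only list, by gel range in kDa. Right, log2 fold over input at those regions (box, quartiles with the median; whiskers, 1.5 times the interquartile range; dots, regions beyond). The range of 25 to 100 kDa holds the fewest regions, 368, and 125 to 200 kDa has the highest median, 1.78.

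The RBP lists did not enter the choice of the regions, and HNRNPC peaks lay on most of them. A peak of the HNRNPC wild-type list, made with an antibody against HNRNPC and without any tag antibody, overlapped 566 of the 785 regions on the same strand, or 72.1% (95% Wilson interval 68.9% to 75.1%), against 6.74% of all 272335 merged regions. The V5 list of HNRNPC isoform 2 overlapped 521 (66.4%, background 6.22%) and that of isoform 1 overlapped 453 (57.7%, background 5.27%). The members' shares were between 10.7 and 10.9 times the backgrounds. These shares count peaks of any fold, also those below input. The log2 fold was above 0 at 537 of the 566 regions for wild type, 485 of 521 for isoform 2 and 396 of 453 for isoform 1. At least 1 HNRNPC list overlapped 593 regions (75.5%, against 9.83% of all merged regions), and all 3 overlapped 409 (52.1%, against 2.95%).

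The same lists hardly touched the FLAG-recurrent regions. HNRNPC wild-type peaks overlapped 2 of the 453 FLAG-recurrent regions without V5-only peaks (0.442%), isoform 1 overlapped 2 and isoform 2 overlapped 4 (0.883%). Of the 19212 V5-recurrent regions that also had FLAG-only peaks, 10.7% were overlapped by HNRNPC wild type and 11.1% by each isoform. Thus among V5-recurrent regions the HNRNPC wild-type share was 6.75 times as high where FLAG-only peaks were lacking. This ratio is over regions of all lengths, and the 2 sets had median lengths of 47 and 110 nt. At 40 to 59 nt, the commonest length class of the members, the shares were closer, 83.0% and 32.3%. These shares are over regions of single libraries, and no p-value was computed for them.

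For RBFOX2 and DGCR8 the excess was smaller. RBFOX2 overlapped 13.0% of the regions in wild type (background 6.03%) and 21.4% in V5 (background 9.11%). DGCR8 overlapped 13.4% in wild type (7.05%) and 11.2% in FLAG (4.96%). These 4 shares stood between 1.90 and 2.35 times the background. Each was lower than in V5-recurrent regions with FLAG-only peaks, where it was between 25.3% and 38.4%. Those regions were longer, with a median of 110 nt against 47 nt, and shares of RBPs other than HNRNPC were not computed by length.

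For the messenger RNA binding proteins the shares were near or below the background. FMR1 wild type overlapped 15.7% of them (background 14.8%) and FMR1 FLAG 15.9% (23.5%), LIN28 wild type 9.68% (9.34%) and LIN28 V5 16.1% (15.1%). In V5-recurrent regions with FLAG-only peaks, FMR1 FLAG stood at 74.3%, FMR1 wild type at 62.7%, LIN28 V5 at 51.9% and LIN28 wild type at 42.6%. These shares, too, were not adjusted for the greater length of those regions. Relative to the background, the V5 antibody lists of RBFOX2 and LIN28 were close to their wild-type lists, at 2.35 against 2.16 and at 1.06 against 1.04 times, a comparison of single libraries that was not tested.

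**Figure D3:**
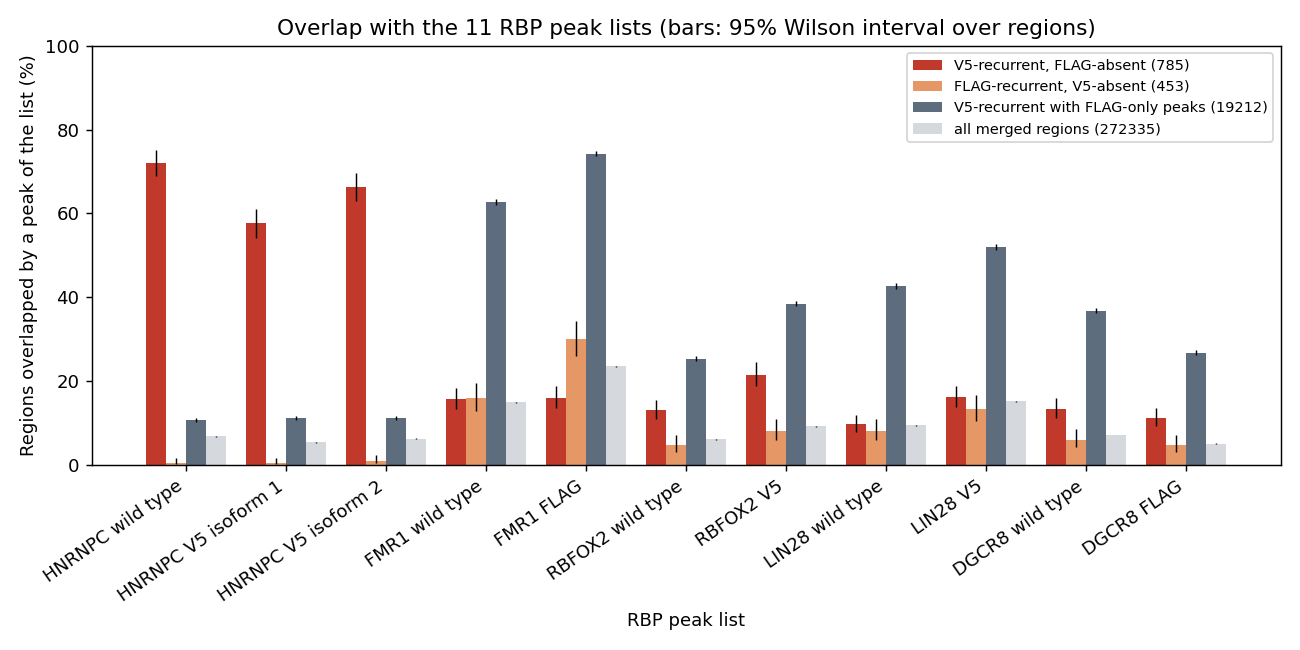
Share of regions (%) overlapped by a peak of each of the 11 RBP lists, for the 785 V5-recurrent regions without FLAG-only peaks, the 453 FLAG-recurrent regions without V5-only peaks, the 19212 V5-recurrent regions with FLAG-only peaks and all 272335 merged regions. Whiskers are 95% Wilson intervals over regions. The 3 HNRNPC lists overlap 57.7% to 72.1% of the first set and under 1% of the second.

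Counted by region, HNRNPC was often the only profiled RBP with a peak, whatever the fold of that peak. Peaks of HNRNPC lists and of no other RBP list lay on 293 regions (37.3%, against 5.41% of all merged regions), and 191 (24.3%, against 1.42%) had peaks of all 3 HNRNPC lists and of no other RBP. Peaks of other RBPs without an HNRNPC peak lay on 123 regions (15.7%, against 38.0%), and 69 (8.79%, against 52.1%) had no RBP peak. In V5-recurrent regions with FLAG-only peaks, 0.890% had HNRNPC peaks alone and 77.9% had peaks of other RBPs alone.

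HNRNPC overlap fell as FLAG-only lists joined. Among V5-recurrent regions, the share with an HNRNPC wild-type peak was 72.1% with no FLAG-only list, 39.6% with 1, 20.7% with 2, 14.6% with 3, 9.27% with 4, 7.11% with 5, 5.56% with 6 and 9.02% with 7. FMR1 FLAG went the other way, from 15.9% with no FLAG-only list to 87.2% with 7. Region length rose as well: with 5 V5-only lists the median was 46 nt with no FLAG-only list and 116 nt with 7. Shares by length were computed for HNRNPC only, so the FMR1 FLAG shares are not adjusted for it. Among regions without FLAG-only peaks, the HNRNPC wild-type share was 8.86% in those of 1 V5-only list, 22.0% with 2, 36.7% with 3, 51.2% with 4, 68.4% with 5, 77.6% with 6 and 82.1% with 7. For regions of FLAG-only lists alone it was at most 1.51% at any number of lists. The regions just outside the rule therefore had lower shares than those just inside it: 51.2% of 1290 regions with 4 V5-only lists and no FLAG-only list, and 39.6% of 879 regions with 5 or more V5-only lists and 1 FLAG-only list, beside 68.4% of the 506 with 5 and none.

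**Figure D4:**
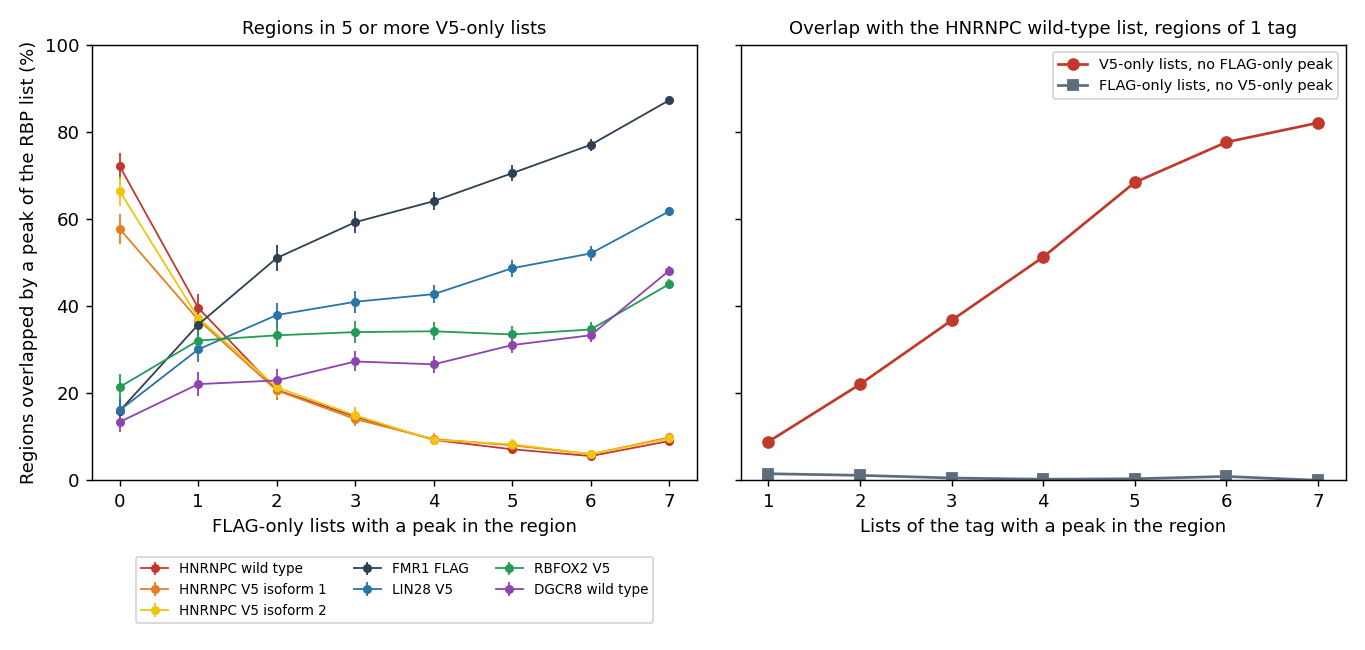
Left, share of regions in 5 or more V5-only lists (%) overlapped by peaks of 7 RBP lists, by the number of FLAG-only lists with a peak there; whiskers are 95% Wilson intervals. Right, share overlapped by HNRNPC wild-type peaks for regions of V5-only lists alone and of FLAG-only lists alone, by number of lists. HNRNPC wild type falls from 72.1% to 9.02% on the left and rises from 8.86% to 82.1% for V5-only lists on the right.

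The length of the regions went with the HNRNPC share. It was 85.4% in the 123 regions under 40 nt, 83.0% in the 481 of 40 to 59 nt, 42.6% in the 129 of 60 to 99 nt and 13.5% in the 52 of 100 nt and above. In V5-recurrent regions with FLAG-only peaks the shares in the same length classes were 16.2%, 32.3%, 11.3% and 6.26%, and in FLAG-recurrent regions without V5-only peaks they were 0%, 2%, 0% and 0%. The members stood above both sets in each of the 4 classes.

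The HNRNPC peaks lay near the middle of the regions, as did those of other RBPs. The midpoint of the HNRNPC wild-type peak lay at a median distance of 3 nt from the midpoint of the region, and 95.8% were within 20 nt. In the 8 lists of other RBPs the median distance was between 4.25 and 7.75 nt, with 76.3% to 92.0% within 20 nt. Overlap with regions this short by itself keeps the midpoints close. The median log2 fold of these peaks was 1.98 for wild type, 1.66 for isoform 2 and 1.20 for isoform 1, where the medians over all peaks of the lists were 1.05, 1.19 and 1.11. In each of the 8 lists of other RBPs the median fold at the regions was below that of the list, for instance 0.74 against 1.55 in FMR1 wild type and 0.40 against 1.51 in LIN28 V5.

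Significant HNRNPC peaks were fewer. They overlapped 75 regions in wild type, or 9.55% (7.69% to 11.8%, background 0.248%), 31 in isoform 2 (3.95%, background 0.13%) and 10 in isoform 1 (1.27%, background 0.0514%). No FLAG-recurrent region without V5-only peaks had one, which by counting error allows a share of up to 0.662% (3 counts of 453) or 0.841% (Wilson upper bound). Of the 676 merged regions with a significant HNRNPC wild-type peak, 75 (11.1%) were among the 785. The 785 regions nevertheless held only 1.01% of all HNRNPC wild-type peaks.

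**Figure D5:**
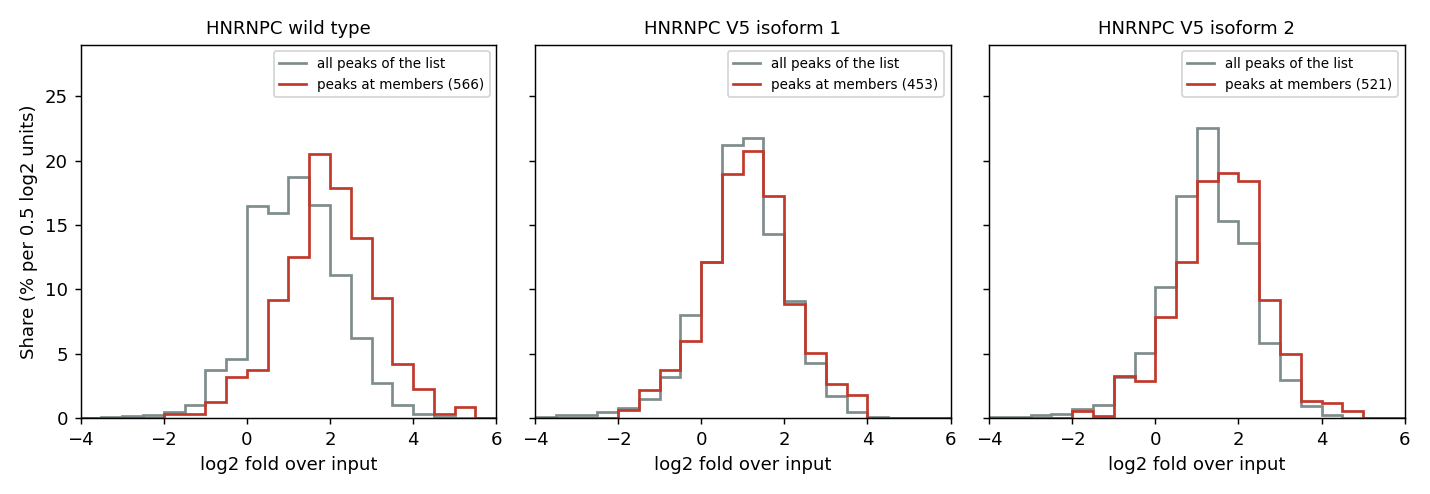
Distribution of the log2 fold over input (share in % per 0.5 log2 units) of all peaks of each HNRNPC list (grey) and of the peaks at the V5-recurrent regions without FLAG-only peaks (red, 566, 453 and 521 regions). The red curve lies to the right of the grey in wild type, with medians of 1.98 and 1.05, and close to it in isoform 1, with 1.20 and 1.11.

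The 593 regions with an HNRNPC peak differed in length, enrichment and surroundings from the 192 without. Their median length was 45 nt against 64 nt, and the median log2 fold in V5-only lists was 1.17 against 1.62. FLAG-only peaks lay farther away, at a median distance of 808 nt against 95 nt, and 55.1% against 84.9% had one within 1 kb. The range of 25 to 100 kDa held 41.8% of the regions with HNRNPC and 62.5% of those without, and the range of 150 to 225 kDa 94.1% and 82.3%. Significant V5-only peaks were about as frequent in both, 12.3% and 12.5%.

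FLAG-only peaks were usually near on the same strand. The median distance from a region to the nearest was 540 nt (quartiles 131 and 1929 nt), 490 regions (62.4%) had one within 1 kb and 95.2% within 10 kb. FLAG-recurrent regions lay at a median of 697 nt from V5-only peaks, with 55.4% within 1 kb. Distances were not computed for all merged regions, so these shares have no background and nearness cannot be called particular to the 785 regions. On the opposite strand the median distance was 39145 nt, and only 2 of the 785 regions were overlapped there. A distance of at most 100 nt applied to 165 regions (21.0%), and among the 620 farther away the HNRNPC wild-type share was 81.9%.

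Individual regions with peaks in all 7 V5-only lists illustrate the range of values. Positions are in hg19, from the submitters' processing notes, and genes are not named since no annotation of that build was used. At chr7:102277783-102277837 on the minus strand, the log2 folds from the lowest to the highest gel range were 1.71, 2.66, 3.28, 3.16, 2.78, 2.12 and 2.50. This was the highest median, 2.66, among the 78 regions in all 7 lists, and only the peak at 100 to 175 kDa was significant. HNRNPC wild type had a peak there with a log2 fold of 2.98.

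At chr19:45912325-45912390 (−) the log2 folds were 2.56, 1.78, 4.42, 2.46, 1.78, 3.15 and 2.75, with significant peaks at 75 to 150 and 150 to 225 kDa. At chr19:1422620-1422674 (+) they were 2.20, 2.94, 2.13, 1.94, 3.16, 2.44 and 1.44, and the HNRNPC peaks had 2.13 (wild type), 1.46 (isoform 1) and 2.42 (isoform 2). That region and 2 more members lay within 492 nt of one another. At chr6:24719345-24719389 (−) the folds were 0.97, 1.99, 1.61, 2.60, 2.48, 2.80 and 2.70. The 4 highest ranges there exceeded the 3 lowest, and no peak was significant. All 3 HNRNPC lists had peaks at that region, at 2.25 (wild type), 2.54 (isoform 1) and 1.73 (isoform 2) on the log2 scale.

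A few regions were strongly enriched in fewer lists. The highest median log2 fold, 3.46, was at chr1:28087469-28087516 (+), absent at 25 to 100 and 75 to 150 kDa, with 2.66, 3.46, 4.10, 4.77 and 3.44 in the others from low to high. It was significant in the 3 highest ranges and overlapped by all 3 HNRNPC lists, whose log2 folds were 4.16 (wild type), 2.86 (isoform 1) and 2.27 (isoform 2). The nearest FLAG-only peak was 44 nt away.

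The deepest signal by p-value among the named regions was at chrX:73072436-73072474 (−), which had no peak at 175 to 250 kDa. Its log2 folds from low to high were 2.14, 2.67, 3.34, 3.11, 4.24 and 2.90, with −log10 p between 18.2 and 68.1. The HNRNPC folds there were 2.89 (wild type), 1.62 (isoform 1) and 2.18 (isoform 2), and a FLAG-only peak lay 23 nt away. The rules for recurrence, enrichment, RBP overlap and significance named 27 regions. Of these, 22 had a peak of at least 1 HNRNPC list and 19 one of the wild-type list. Over all 785 regions these shares were 75.5% and 72.1%. The 5 regions named for the most RBP lists had 9 to 11 of them, which cannot be reached without an HNRNPC list. The count therefore sets the named regions apart in nothing.

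Some of the well-enriched regions had no HNRNPC peak, or only a peak below its input. At chr16:2030578-2030636 (+), with peaks in all 7 V5-only lists, the log2 folds were 2.71, 2.47, 2.18, 2.16, 3.78, 2.33 and 3.20. The peaks at 125 to 200 and 175 to 250 kDa were significant, and no RBP list had a peak there. At chr19:46273183-46273225 (−), present in 5 lists with 1.56, 3.12, 2.78, 3.95 and 3.96 and absent at 75 to 150 and 150 to 225 kDa, the only RBP peak was from HNRNPC isoform 1 with a log2 fold of −1.63, below its input. A region at chr5:107005686-107005715 (−) had a median log2 fold of 2.96, no RBP peak, and no FLAG-only peak within 10 kb on its strand.

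At the other end, chr2:85770897-85770934 (+) was overlapped by all 11 RBP lists. Its V5-only folds were −0.20, 1.69, 1.14, 2.37 and 1.24 from 50 to 125 kDa upwards, and the RBP lists ranged from 0.72 in LIN28 wild type to 1.87 in HNRNPC wild type. It was the only region with all 11 lists, and the commonest number of RBP lists was 3, in 262 regions.

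The 5 regions with the highest HNRNPC wild-type folds had median V5-only log2 folds of 1.16, 1.39, 1.63, 1.78 and 1.49, beside a median of 1.31 over all 785. The highest and the lowest HNRNPC fold of the 5 are given here, chosen after their values were seen. At chr20:43560148-43560191 (+) HNRNPC wild type had a log2 fold of 5.47, isoform 1 had 2.23 and isoform 2 had 2.28, and the V5-only folds in 5 lists were 3.36, 1.16, 1.93, 0.24 and 1.08. At chr5:27486490-27486532 (+) the HNRNPC folds were 5.14, 3.15 and 3.11, and the V5-only folds from 50 to 125 kDa upwards were 1.30, 1.42, 1.40, 1.56, 2.99 and 2.22. No V5-only peak was significant at any of the 5.

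Some regions lay close together. Within 10 kb on a strand, 124 regions (15.8%) fell into 54 clusters, 14 of them with 3 or more, and 661 stood alone. Clusters were not counted in the other sets of regions, so this share has no background and cannot be called particular to these regions. The largest held 5 regions, at chr11:65195120-65209287 (+), of which 3 had an HNRNPC wild-type peak. Chromosome 1 had the most regions, 88, or 11.2% against 10.2% of all merged regions. Chromosome 19 had 73, which was 9.30% of the regions against 6.46% of all merged regions.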

How the data were processed

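The members and lists described here were chosen with earlier results of these data known. The values are the authors': each deposited peak list gives a −log10 p (at most 400) and a log2 fold over size-matched input per peak. Files have no header, so these units were read from the values. Per the submitters' processing notes the build was hg19 and cutadapt, STAR, GATK, Picard and SAMtools were used, without versions. No source used here names the peak caller. Peaks came per library, not from pooled libraries.

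Peaks of the 14 tag-only lists were merged with Python 3.11.15, pandas 2.3.3 and NumPy 2.4.6, after checks on simulated peaks. 3622 mitochondrial peaks were left out, where 1 merged region would have met the counts. A region's value in a list is its peak of highest fold. Overlap means 1 nt or more on the same strand, and distance runs to the nearest peak. Shares carry 95% Wilson intervals. Inputs and an annotation or sequence of the files' build were not used here. The regions named were, at most, the 12 of highest median fold in all 7 V5-only lists, the 10 of highest median fold in any number of lists, the 5 in the most RBP lists and the 5 significant in the most V5-only lists. Positions are 1-based.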

Additional observations from a re-analysis of the deposited data

Results flagged for a closer look

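Among 21 sets of 7 values, 1 for each gel range, 2 held a value far from the other 6. No chance rate can be set beside this. Several sets measure related quantities, others are single regions chosen for high folds, and neighbouring gel ranges overlap. The regions were also chosen from these same lists. The share of regions with a peak of any HNRNPC list was 67.4% among those held by the V5-only list of 25 to 100 kDa, where the remaining 6 lists had 75.2% to 78.8%. That list also held the fewest of the regions, 368. At chr2:231647560-231647616 (+) the V5-only peak at 125 to 200 kDa had a log2 fold of 5.43, and the remaining 6 ranges had 1.47 to 2.56. All 3 HNRNPC lists had a peak there, with log2 folds of 3.90, 3.50 and 3.69, and the V5-only list of 125 to 200 kDa also had the highest median fold over all its peaks, 2.37. What these moves share was not tested.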

How the results depend on the processing

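The median log2 fold kept its sign, which counts and shares cannot change. The order of the 2 numbers of regions did turn. Of the values of the main comparisons recomputed under other settings, 60 stayed within their margin and 40 moved. Asking for 4 of 7 lists gave 2075 V5-recurrent and 1278 FLAG-recurrent regions, asking for 6 gave 279 and 169, and counting significant peaks alone gave 0 and 67. Leaving out each V5-only list in turn gave 344 to 587 V5-recurrent and 502 to 664 FLAG-recurrent regions. Leaving out each FLAG-only list gave 860 to 1059 and 228 to 275. The tag with a list left out had to keep 5 of the remaining 6, and only those 6 could bar regions of the other tag. The omission itself thus favours the other tag. With significant peaks alone, where no list was left out, the FLAG-recurrent regions were also the more numerous. The share of regions with a significant V5-only peak was 4.33% at a −log10 p of at least 5, 23.6% at a log2 fold of at least 2, and 7.13% to 12.2% without 1 V5-only list. The median log2 fold stayed between 1.21 and 1.37 without 1 V5-only list.

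With 6 of 7 lists the HNRNPC shares were 78.9% (wild type), 66.3% (isoform 1) and 74.2% (isoform 2), and with significant peaks alone 9.55%, 1.27% and 3.95%. In the FLAG-recurrent regions they were 0% with significant peaks alone, and isoform 2 had 2.37% with 6 of 7 lists. Chosen after seeing the data, the wild-type share was 81.9% in regions over 100 nt from FLAG-only peaks, 66.9% in regions with a positive fold in 5 V5-only lists, and 72.4% to 78.0% without 1 V5-only list (FLAG-only lists were not left out for it). FLAG-only peaks lay within 100 nt of 21.0% and within 10 kb of 95.2% of regions. Alternatives on annotation and sequence were not run. No paired test was run, and the numbers of regions and the shares over them pool the 7 lists of a tag. The libraries of the 2 tags pair by gel range, and shares set side by side by range are given as values. Each library is single and read depth is unknown, which limits all shares to counting error.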

Other observations

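Peaks outside both sets of tag-specific regions showed the same order of the tags. With the V5-recurrent regions without FLAG-only peaks and their FLAG counterparts left out, HNRNPC wild-type peaks overlapped between 4.04% and 15.1% of the peaks of a V5-only list and between 2.06% and 6.62% of those of a FLAG-only list. The V5-only share was higher in 7 of 7 gel ranges. It was 4.04% against 2.06% at 25 to 100 kDa and 15.1% against 6.62% at 175 to 250 kDa, which had the highest share for both antibodies. These values were examined after the overlap at the regions was known, rest on 1 library per tag and range, and were not tested.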
